A study of Homo sapiens with 4 samples.

Results

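Small nucleolar RNA host genes are genes, most of them noncoding, whose introns hold the small RNAs that guide chemical modification of other RNAs. The host genes described here are those whose symbol is SNHG followed by a number, together with GAS5, ZFAS1, EPB41L4A-AS1, DANCR and MIR17HG. These hosts were chosen by name, with earlier results of these data known. They came to 33 of the 60617 genes in the deposited table, and 27 of the 33 had enough counts to be tested. RNA was measured by RNA-seq in A673, an established human Ewing sarcoma cell line that carries a fusion of EWSR1 to FLI1 and has no functional p53. Control cells received DMSO, the vehicle, and treated cells received CBL0137 at a dose of 1 µM, each for 24 h, and either condition has 2 libraries. The labels name no genetic change in either group. CBL0137 is a curaxin, a small molecule that binds DNA and holds the histone chaperone FACT on chromatin, and the series' title names inhibition of FACT as its question. Separate cultures are not mentioned in the labels, and the p-values below therefore reflect the spread among these libraries alone, which may be technical.

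A host gene is transcribed and spliced, and the small RNA is then trimmed out of the excised intron and packed with proteins. Box C/D small nucleolar RNAs guide 2′-O-methylation and box H/ACA RNAs guide pseudouridylation, mainly of ribosomal RNA, while small Cajal body RNAs guide the same changes in spliceosomal RNAs. The spliced exons that remain are what RNA-seq of this kind mostly counts, and for many hosts they are short-lived because ribosomes that start on them bring them to nonsense-mediated decay. Several hosts begin with a 5′ terminal oligopyrimidine tract, called TOP, a C followed by a run of C and T that is best known from ribosomal protein genes. DANCR and MIR17HG are placed with them because DANCR also holds a small nucleolar RNA and MIR17HG is the host of a microRNA cluster.

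Each library held between 20483714 and 23373554 counts over genes, so that 3 counts corresponded to 0.128 to 0.146 CPM (counts scaled to a common library total). Reads that could not be given to 1 gene because genes overlap made up between 9.19% and 9.50% of all reads. The scatter within a condition exceeded counting noise: chi-square divided by its degrees of freedom was 2.07 for the DMSO pair and 2.57 for the CBL0137 pair, and 20.8 for the first libraries of the 2 conditions. All 8 marker genes of the line were counted in every library, from 47.4 CPM for NKX2-2 in DMSO replicate 2 to 2999 CPM for CCND1 in DMSO replicate 1. At an adjusted p under 0.05 by edgeR, 2 of the 8 were higher in CBL0137 and 3 lower, with 0 past a fold of 1.5. The share of markers under that adjusted p was 62.5%, beside 36.5% of all genes tested and 48.7% of those averaging at least 10 CPM. NR0B1 was at a log2 fold change of 0.29 ± 0.04, PRKCB at -0.23 ± 0.03 and EWSR1 at -0.19 ± 0.04, while CD99 lay at 1562 to 1592 CPM throughout (-0.02 ± 0.03).

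The start-site sequences are shown first because the TOP tract is the feature that ties host genes to ribosomal protein genes. The RefSeq promoter table (GRCh38.p14) had an entry for 29 of the 33 hosts, 24 of them among the tested. Each sequence below runs 15 bases before the annotated start and 30 bases from it on, on the transcribed strand, with capitals marking a tract that opens with C at the start and continues with C or T for at least 5 bases in all. A tract of this kind stood at the start of 6 of the 24 tested hosts (25.0%), against 1104 of all 27305 promoters in the table (4.04%), 43 of 63 ribosomal protein genes (68.3%) and 10 of 12 other TOP genes of translation (83.3%). The 6 tested hosts with a tract are printed here.
SNHG12 (chr1:28581844-28581888, minus strand): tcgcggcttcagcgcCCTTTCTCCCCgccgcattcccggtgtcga
SNHG19 (chr16:2155329-2155373, minus strand): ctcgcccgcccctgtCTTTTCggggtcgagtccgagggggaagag
SNHG5 (chr6:85678704-85678748, minus strand): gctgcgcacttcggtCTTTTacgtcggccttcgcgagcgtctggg
ZFAS1 (chr20:49278627-49278671, plus strand): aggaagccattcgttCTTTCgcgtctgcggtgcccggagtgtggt
SNHG4 (chr5:139274086-139274130, plus strand): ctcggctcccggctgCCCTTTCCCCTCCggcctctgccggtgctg
SNHG32 (chr6:31834901-31834945, plus strand): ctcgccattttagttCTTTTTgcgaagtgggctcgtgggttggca

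The next 5 starts belong to the other hosts with an adjusted p under 0.05 and a promoter entry, and none of them has such a tract at the annotated base.
DANCR (chr4:52712379-52712423, plus strand): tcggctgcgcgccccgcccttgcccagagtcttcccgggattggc
SNHG16 (chr17:76557749-76557793, plus strand): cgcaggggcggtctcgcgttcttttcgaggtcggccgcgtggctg
SNHG3 (chr1:28505928-28505972, plus strand): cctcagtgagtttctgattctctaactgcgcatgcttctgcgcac
SNHG7 (chr9:136728155-136728199, minus strand): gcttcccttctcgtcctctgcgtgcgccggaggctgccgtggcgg
SNHG14 (chr15:24823593-24823637, plus strand): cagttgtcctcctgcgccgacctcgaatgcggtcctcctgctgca

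The missing capitals say only that the run is not at that base of this annotation. The starts were joined to the hosts by symbol and were not matched in position to the genes that were counted. A printed start, that of SNHG14 included, may therefore not be the start of the counted gene. SNHG7, for example, opens with C and T for 4 bases, and SNHG16 has a run of C and T a few bases further in.

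One small RNA is shown for each of 5 of the 8 hosts that had an adjusted p under 0.05. The annotation used here places none within SNHG5, SNHG6 and SNHG7, the other 3. The sequences come from GRCh37 at the positions of GENCODE release 44 lifted to that build. Capitals mark a C box, searched as TGATGA in the first 20 bases, and a D box, searched as CTGA in the last 15, or, in an H/ACA RNA, the ACA searched in the last 10, on the strand of the RNA.
SNORA26, in DANCR (chr4:53579416-53579537, plus strand): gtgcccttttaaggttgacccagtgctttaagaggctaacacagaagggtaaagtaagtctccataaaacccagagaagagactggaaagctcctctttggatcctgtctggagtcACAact
SNORA73B, in SNHG3 (chr1:28835071-28835274, plus strand): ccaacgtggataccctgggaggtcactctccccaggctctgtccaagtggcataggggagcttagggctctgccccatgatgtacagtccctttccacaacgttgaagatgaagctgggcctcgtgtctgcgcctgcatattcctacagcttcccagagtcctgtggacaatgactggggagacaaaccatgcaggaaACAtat
SNORD99, in SNHG12 (chr1:28905261-28905334, minus strand): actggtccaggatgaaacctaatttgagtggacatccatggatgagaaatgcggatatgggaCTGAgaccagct
SNORD1B, in SNHG16 (chr17:74557191-74557274, plus strand): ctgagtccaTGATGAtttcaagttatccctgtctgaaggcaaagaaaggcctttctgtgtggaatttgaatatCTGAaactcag
SNORD116-1, in SNHG14 (chr15:25296624-25296718, plus strand): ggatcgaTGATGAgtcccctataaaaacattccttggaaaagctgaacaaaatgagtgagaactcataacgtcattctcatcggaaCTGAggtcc

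SNHG14 holds far more box C/D RNAs than any other host, 72 in this annotation, and 63 of the 72 had both boxes in these letters. SNORD99 shows the D box and not the exact letters of the C box.

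Expression of the host genes differed little between CBL0137 and DMSO. No host gene passed both the adjusted p limit of 0.05 and the fold limit of 1.5 in edgeR's quasi-likelihood test. These are the limits that the series itself names. Of all 17309 genes tested 1663 (9.61%) passed both, 1191 of them higher in CBL0137 (6.88%) and 472 lower (2.73%). The share was smaller where expression averaged 10 CPM or more, with 254 of 9915 genes higher and 239 lower. Of the 27 hosts, 21 lie in that range. Of the 27 tested hosts 11 had an unadjusted p under 0.05, beside 7757 of all 17309 genes. Where expression averaged 10 CPM or more, this was 11 of 21 hosts and 5610 of 9915 genes. The share of hosts was thus below that of all genes in both cases. DESeq2 and limma-voom also called 0 hosts at the 2 limits together. Without the fold limit, 8 hosts (29.6%) had an adjusted p under 0.05, 6 of them lower in CBL0137 and 2 higher. The same limit took in 6314 of all genes tested (36.5%), 3292 lower (19.0%) and 3022 higher (17.5%), so the share of hosts that differed was not above that of genes in general.

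The direction was more often downward. Of the 27 hosts, 19 (70.4%) had a log2 fold change below zero, beside 49.5% of all genes tested, and their median was -0.08, beside 0.00. The host median was -0.12 without DMSO replicate 1, -0.13 without CBL0137 replicate 2, -0.04 with upper-quartile scaling and -0.02 with library size alone or in the FPKM, while the median of all genes was 0.051, 0.065 and 0.028 in the last 3 of these. Restricted to a mean of at least 10 CPM, the median was -0.08 over 21 hosts and -0.04 over all 9915 such genes, the share below zero was 71.4% and 56.8%, and the share with an adjusted p under 0.05 was 38.1% and 48.7%. In 14 hosts both CBL0137 libraries lay below both DMSO libraries and in 6 they lay above, while the conditions did not overlap in 66.9% of all genes tested. CPM are shares of a library, so a change in the total RNA of a cell, or in the number of cells, cannot be told apart here. Summed over the 27 hosts, expression was 922 to 938 CPM in DMSO and 864 to 898 CPM in CBL0137.

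**Figure D1:**
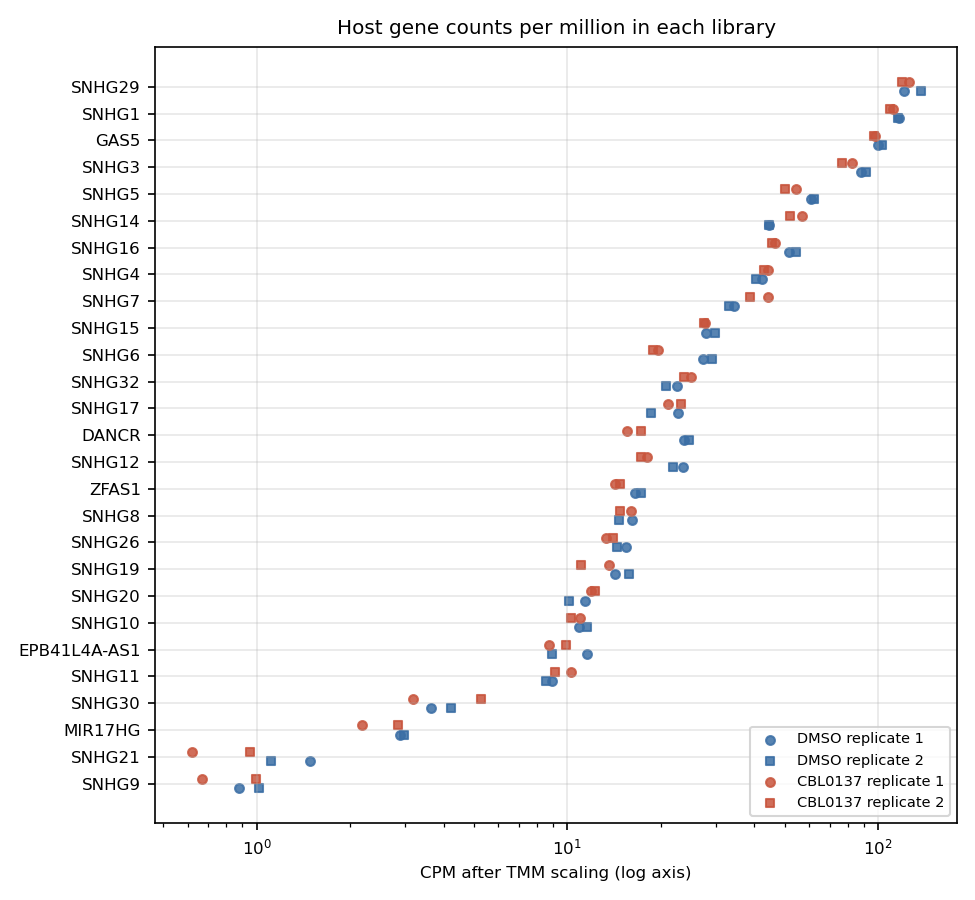
Expression of the 27 tested host genes in each of the 4 libraries, as CPM after TMM scaling on a log axis, with circles for replicate 1, squares for replicate 2, blue for DMSO and red for CBL0137. The hosts spread from about 1 CPM for SNHG9 to above 100 CPM for SNHG29, SNHG1 and to about 100 CPM for GAS5, and for most of them the 4 libraries lie close together.

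The hosts of box C/D RNAs included the largest of the differences that passed the adjusted p limit. Of the 12 tested, 3 were lower at that limit, 1 was higher and 8 did not pass, with a median log2 fold change of -0.11. The share that passed was 33.3%, beside 36.5% of all genes tested and 48.7% of those with a mean of at least 10 CPM. SNHG6, at chr8:67832796-67838633 in hg19, is the host of SNORD87. Its expression was 27.4 and 29.3 CPM in the DMSO libraries and 19.6 and 18.8 CPM in the CBL0137 libraries, so that the conditions lay well apart. Its log2 fold change was -0.56 ± 0.08 (SE), a change of -32.3%, with an adjusted p of 6.7e-06 in edgeR's test. This value lies within 1 SE of the fold limit, and it passed that limit when DMSO replicate 1 (-0.61) or CBL0137 replicate 1 (-0.60) was left out. MCMDC2 on the other strand shares 58.9% of the exon bases of SNHG6, and its expression was 0.444 to 0.863 CPM in the 4 libraries.

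SNHG5, which holds the SNORD50 pair and opens with a TOP tract, measured 60.7 and 62.1 CPM in DMSO and 54.3 and 50.2 CPM in CBL0137. Its log2 fold change was -0.23 ± 0.06, with an adjusted p of 0.00274 by edgeR. SNHG16, the host of the SNORD1 family, measured 51.6 and 54.5 CPM in DMSO and 46.5 and 45.4 CPM in CBL0137. The conditions of both genes were separate, though each difference was small next to that of SNHG6. The log2 fold change of SNHG16 was -0.21 ± 0.06, with an adjusted p of 0.00853 by edgeR that became 0.101 without DMSO replicate 2, 0.0579 by DESeq2 and 0.06 when libraries were scaled by their size alone. An overlapping gene without a symbol shares 28.5% of the exon bases of SNHG16.

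SNHG14 was the only box C/D host that was higher at the adjusted p limit. It is the long antisense transcript of the imprinted Prader-Willi region on chromosome 15, spans 25223730 to 25665483 in hg19, and carries the SNORD116 and SNORD115 clusters. Its expression was 44.6 and 44.5 CPM in DMSO and 56.9 and 51.9 CPM in CBL0137, without overlap. The log2 fold change was 0.29 ± 0.06, with an adjusted p of 7.0e-04 by edgeR. The deposited FPKM of SNHG14 did not show this: they were 2.92 and 1.00 in DMSO and 1.77 and 1.28 in CBL0137, and the log2(FPKM + 1) difference was -0.16 with an adjusted p of 0.785 by limma-trend.

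Other genes share 11.0% of SNHG14's exon bases. UBE3A, the ubiquitin ligase gene that SNHG14 runs antisense to, measured 100 and 99.3 CPM in DMSO and 100 and 91.1 CPM in CBL0137. Its log2 fold change was -0.06 ± 0.05, with an adjusted p of 0.375 by edgeR. SNRPN, on the same strand, was counted at only 0.656 and 0.977 CPM in DMSO and 1.62 and 1.68 CPM in CBL0137. That difference passed both limits, at a log2 fold change of 1.01 ± 0.36 and an adjusted p of 0.029, and it rests on 15 to 39 counts per library of a gene whose exons overlap others. The deposited FPKM of SNRPN did not show such a difference: the highest library, at 39.6 FPKM, was 1.13 times the lowest.

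The 3 box C/D hosts with the most counts did not pass the adjusted p limit. SNHG29, also known as the host of the SNORD49 RNAs, measured 121 and 137 CPM in DMSO and 126 and 119 CPM in CBL0137, and its conditions overlapped. SNHG1, which holds a row of box C/D RNAs beside the amino acid transporter gene SLC3A2, measured 117 and 116 CPM in DMSO and 112 and 109 CPM in CBL0137. GAS5, growth arrest-specific 5, a host named for its accumulation in arrested cells and known as a target of nonsense-mediated decay, measured 100 and 103 CPM in DMSO and 97.7 and 96.8 CPM in CBL0137. The log2 fold changes of the 3 genes were close to zero, at -0.07 ± 0.05 for SNHG29, -0.08 ± 0.04 for SNHG1 and -0.06 ± 0.05 for GAS5, with adjusted p of 0.293, 0.187 and 0.307 by edgeR. SNHG29 turned to 0.01 without DMSO replicate 2.

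ZFAS1, a small TOP transcript with 3 SNORD12 RNAs, measured 16.5 and 17.2 CPM in DMSO and 14.2 and 14.8 CPM in CBL0137. Its conditions did not overlap, and its log2 fold change of -0.22 ± 0.10 had an adjusted p of 0.0869 by edgeR. SNHG19, the host of SNORD60, measured 14.2 and 15.8 CPM in DMSO and 13.6 and 11.1 CPM in CBL0137. It came close to the limit, at -0.28 ± 0.11 with an adjusted p of 0.0573. SNHG32, which lies in the major histocompatibility region and holds SNORD48 and SNORD52, was measured at 22.5 and 20.7 CPM in DMSO and 25.0 and 23.8 CPM in CBL0137. Its value was positive, at 0.18 ± 0.08 with an adjusted p of 0.109, and it passed the adjusted p limit when libraries were scaled by upper quartile or by size alone. SNHG26, the host of SNORD93, had 15.5 and 14.5 CPM in DMSO and 13.3 and 14.0 CPM in CBL0137 (-0.14 ± 0.10), and SNHG30, the host of SNORD7, had 3.63 and 4.22 CPM against 3.19 and 5.27 CPM (0.12 ± 0.21), the latter with overlapping conditions.

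Among hosts of box H/ACA RNAs, 10 were tested, with 2 lower at the adjusted p limit, 1 higher and 7 that did not pass. Their median log2 fold change was -0.04, and 30% passed that limit, beside 36.5% of all genes tested. DANCR, at chr4:53578492-53589790 in hg19, was named for opposing differentiation and holds SNORA26. It measured 23.8 and 24.6 CPM in DMSO and 15.6 and 17.2 CPM in CBL0137, and the conditions were clearly apart. The log2 fold change was -0.55 ± 0.09, a change of -31.9%, with an adjusted p of 2.4e-05 by edgeR. As with SNHG6, the fold limit lay within 1 SE of the value, and DANCR passed it when CBL0137 replicate 2 was left out (-0.63).

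SNHG3, which holds the U17 RNAs needed for early cleavage of the ribosomal RNA precursor, measured 88.4 and 91.6 CPM in DMSO and 82.7 and 76.3 CPM in CBL0137. Its log2 fold change was -0.18 ± 0.05, with an adjusted p of 0.00794 by edgeR that became 0.0669 without DMSO replicate 2, 0.11 without CBL0137 replicate 2 and 0.0707 with library size alone. SNHG3 lies inside RCC1 on the same strand and shares 5.9% of its exon bases with it. RCC1 encodes the chromatin-bound exchange factor for the GTPase Ran. It was lower by more than SNHG3 was, at 131 and 126 CPM in DMSO and 88.9 and 97.1 CPM in CBL0137, which is -0.47 ± 0.05 on the log2 scale (adjusted p 2.9e-08 by edgeR). The difference between the changes of SNHG3 and RCC1 was not tested.

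SNHG7, at chr9:139615818-139622636 in hg19, the host of SNORA17 and a frequently studied RNA of tumour cells, had the largest increase among hosts that passed the adjusted p limit. Expression was 34.3 and 33.1 CPM in DMSO and 44.4 and 38.7 CPM in CBL0137, so that both treated libraries lay above both controls. The log2 fold change was 0.30 ± 0.07, with an adjusted p of 0.00202 by edgeR. It rested partly on CBL0137 replicate 1, the higher of the treated pair, without which the value was 0.19 and the adjusted p 0.0662. DIPK1B on the other strand shares 30.3% of SNHG7's exon bases, and its own log2 fold change was -0.05 ± 0.11.

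SNHG4, the TOP-tract host of SNORA74A, measured 42.4 and 40.5 CPM in DMSO and 44.3 and 42.9 CPM in CBL0137 (0.07 ± 0.06), with an adjusted p of 0.392. The other tested H/ACA hosts had adjusted p between 0.398 and 0.974 by edgeR. SNHG15, the host of SNORA9, measured 28.0 and 29.9 CPM in DMSO and 27.8 and 27.6 CPM in CBL0137 (-0.06 ± 0.08). SNHG17, which holds the SNORA71 RNAs, measured 22.7 and 18.6 CPM in DMSO and 21.1 and 23.3 CPM in CBL0137 (0.11 ± 0.10). SNHG8, the host of SNORA24, measured 16.1 and 14.7 CPM against 16.0 and 14.8 CPM (-0.01 ± 0.10), and its sign turned with the scaling (0.04 by upper quartile, 0.06 by library size alone).

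EPB41L4A-AS1, the host of SNORA13, measured 11.6 and 8.93 CPM in DMSO and 8.76 and 9.89 CPM in CBL0137 (-0.14 ± 0.14). SNHG11, the host of SNORA60, measured 8.93 and 8.57 CPM in DMSO and 10.3 and 9.15 CPM in CBL0137 (0.15 ± 0.13). SNHG9, a very short gene beside RPS2, measured 0.875 and 1.02 CPM in DMSO and 0.667 and 0.993 CPM in CBL0137 (-0.18 ± 0.40). The first and last of these overlapped between conditions, and SNHG11 did not.

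SNHG12 holds RNAs of both box classes and has the TOP tract shown above. It measured 23.6 and 21.9 CPM in DMSO and 18.1 and 17.3 CPM in CBL0137, with the conditions apart. The log2 fold change was -0.37 ± 0.09, a change of -22.4%, with an adjusted p of 0.00221 by edgeR, the largest decrease after SNHG6 and DANCR among hosts that passed the adjusted p limit.

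The 3 tested hosts of Cajal body RNAs did not pass the limit. SNHG10, the host of SCARNA13, measured 10.9 and 11.6 CPM in DMSO and 11.0 and 10.3 CPM in CBL0137 (-0.08 ± 0.12). SNHG20 measured 11.4 and 10.1 CPM in DMSO and 11.9 and 12.3 CPM in CBL0137 (0.16 ± 0.12). SNHG21 had the most negative value of all hosts and one of the widest errors, at 1.49 and 1.11 CPM in DMSO and 0.619 and 0.950 CPM in CBL0137. Its log2 fold change was -0.71 ± 0.39 with an adjusted p of 0.157 by edgeR. It had 13 to 34 counts per library. MIR17HG, the primary transcript of the miR-17-92 cluster of growth-promoting microRNAs, measured 2.89 and 2.98 CPM in DMSO and 2.19 and 2.85 CPM in CBL0137 (-0.21 ± 0.24), with an adjusted p of 0.521.

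**Figure D2:**
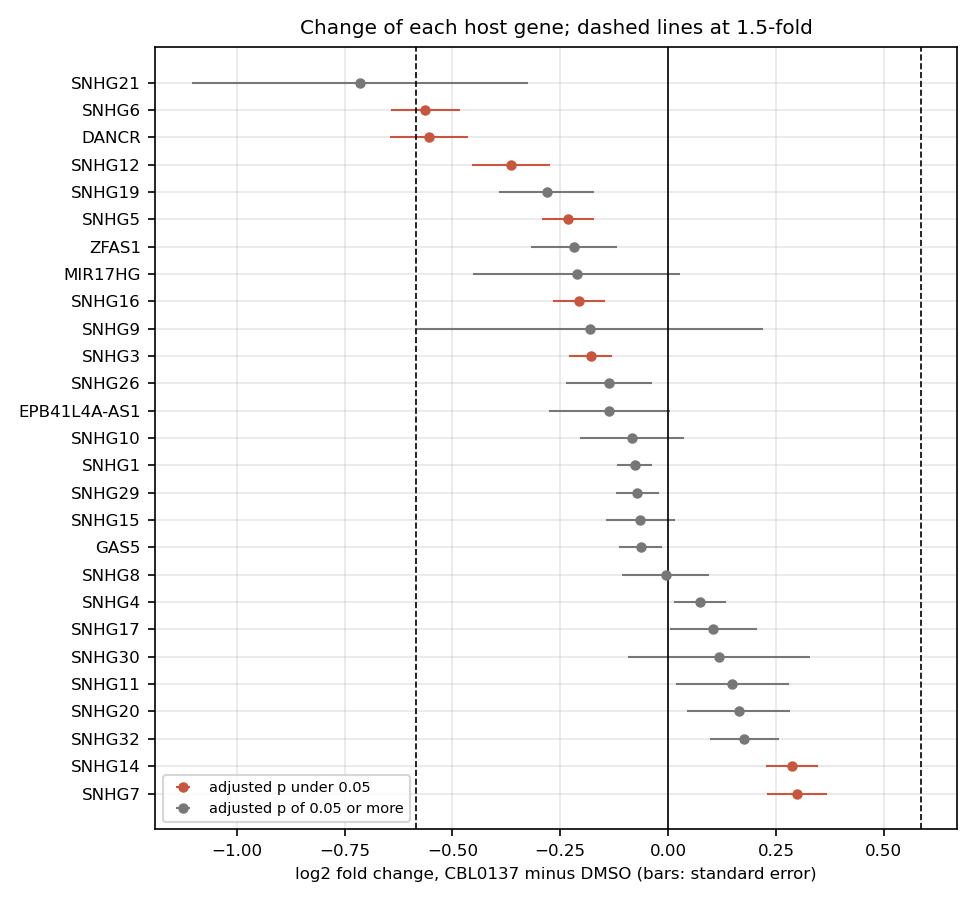
Log2 fold change of CBL0137 against DMSO for each of the 27 tested host genes, with bars for 1 standard error, red where the edgeR adjusted p was under 0.05 and dashed lines at a fold of 1.5. SNHG6 and DANCR stand just inside the lower line, SNHG21 lies beyond it with a wide error, and SNHG7 and SNHG14 are the only red points above zero.

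The remaining 6 hosts had too few counts for a test. SNHG31 had 16 and 3 counts in DMSO and 7 and 8 in CBL0137. SNHG22, whose RNAs are Cajal body RNAs, had 3, 3, 8 and 1 counts in the same order. SNHG25 had 2, 2, 1 and 0 counts, SNHG18 had 2, 1, 1 and 0, and SNHG27 had 0, 0, 0 and 1. SNHG28 had 0 counts in all 4 libraries, which allows up to 0.128 to 0.146 CPM, and yet its deposited FPKM were 1.24, 1.04, 0.991 and 1.57. Other genes share 90.8% of the exon bases of SNHG28.

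Levels of different hosts can be set beside each other only per length, for which the deposited FPKM were used. By the median over 4 libraries SNHG29 was highest at 113 FPKM, followed by SNHG32 at 66.0, SNHG1 at 62.0, GAS5 at 61.0 and ZFAS1 at 52.4. The libraries of SNHG32 (53.6 to 75.3), SNHG1 (61.4 to 62.8), GAS5 (50.2 to 73.3) and ZFAS1 (46.0 to 54.0) overlap with at least 1 neighbour in this order. Among these 4, only SNHG1 and ZFAS1 were separated from each other, with SNHG1 higher in every library. SNHG3 followed at 37.6 and SNHG6 at 31.5, while the very long SNHG14 stood at 1.53 and MIR17HG at 0.453.

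For several hosts the 2 deposited units disagreed between libraries. The highest library of SNHG17 was 3.91 times the lowest in FPKM and 1.30 times in CPM before TMM scaling, because its FPKM was 2.83 in DMSO replicate 2 and 9.24 to 11.1 in the other libraries. The same ratios were 2.92 and 1.34 for SNHG14, 2.03 and 1.09 for SNHG10, 1.83 and 1.19 for SNHG5 and 1.57 and 1.13 for SNHG29, which reached 160 FPKM in CBL0137 replicate 1 alone. SNHG21 went the other way, at 1.32 in FPKM and 2.29 in CPM. In the FPKM, 2 hosts passed the adjusted p limit by limma-trend: SNHG5 was lower, at 23.9 and 24.0 FPKM in DMSO and 16.9 and 13.1 FPKM in CBL0137 (-0.65 on the log2(FPKM + 1) scale, adjusted p 0.0416), and SNHG32 was higher, at 57.5 and 53.6 FPKM in DMSO and 74.5 and 75.3 FPKM in CBL0137 (0.43, adjusted p 0.0204). The sources used here do not name the tool behind the FPKM.

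**Figure D3:**
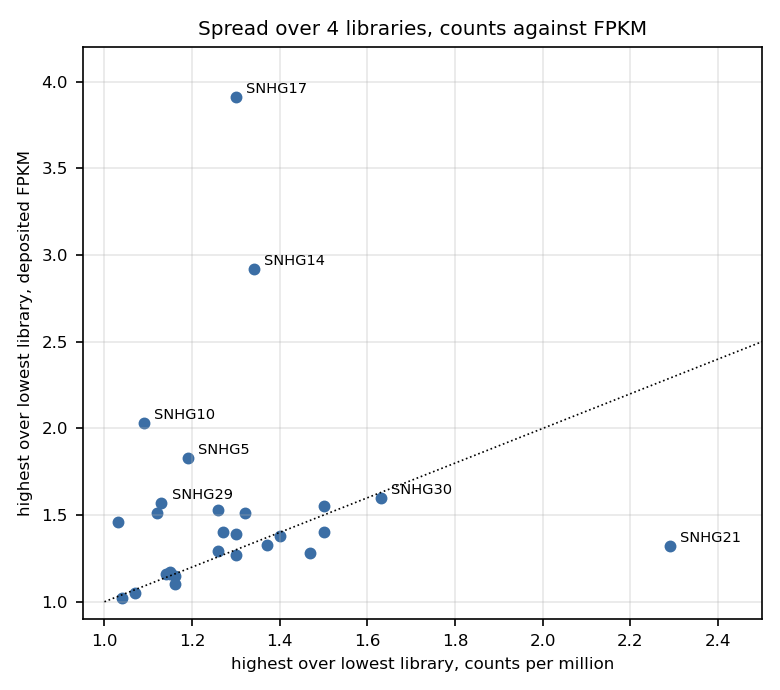
Ratio of the highest to the lowest of the 4 libraries for each tested host gene, in CPM before TMM scaling on the horizontal axis and in deposited FPKM on the vertical axis, with a dotted line where the 2 are equal. SNHG17, SNHG14, SNHG10, SNHG5 and SNHG29 lie well above the line and SNHG21 below it.

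Hosts with a TOP tract at the RefSeq start had a median log2 fold change of -0.23 over 6 genes, from -0.37 for SNHG12 to 0.18 for SNHG32, with 2 lower and 0 higher at the adjusted p limit. The 18 tested hosts with a promoter entry and no tract had a median of -0.07, with 3 lower and 2 higher. That group holds GAS5, with no run at its start, and SNHG1, SNHG7 and SNHG26, whose runs of 3 or 4 bases fell short. Its members lack a tract at the annotated base used here and are not hosts known to lack one. The ranges of both groups overlap, and the difference between them was not tested. Over all genes tested, 36.5% passed the adjusted p limit.

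Genes of related function were read in the same fit. Ribosomal protein genes, the model TOP genes, were nearly all lower in CBL0137: of 79 tested, 69 were lower at the adjusted p limit, 1 was higher and 3 passed the fold limit too (6 without DMSO replicate 1), with a median log2 fold change of -0.31. RPL3, a core protein of the large subunit, was 938 and 958 CPM in DMSO and 579 and 628 CPM in CBL0137 (-0.65 ± 0.04, adjusted p 2.4e-13 by edgeR). RPL9 changed by -0.72 ± 0.04 (adjusted p 8.6e-13) and RPS16 by -0.56 ± 0.03 (adjusted p 1.7e-12). Summed over the list, expression was 35802 to 36104 CPM in DMSO and 28459 to 28829 CPM in CBL0137. Other TOP genes of translation had a median of -0.19 over the 17 tested of 18, with 14 lower and 1 higher at the adjusted p limit and 0 past the fold limit (16 at an unadjusted p under 0.05). The adjusted p limit took in 88.6% of the ribosomal protein genes and 88.2% of the other TOP genes. Over all genes tested the share was 36.5%, and 48.7% of those averaging at least 10 CPM. EIF4B changed by -0.35 ± 0.03, EEF1A1 by -0.28 ± 0.03 and RACK1 by -0.31 ± 0.04. The host genes' median of -0.08 was smaller in size than both, and no test was made between the lists.

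Protein-coding genes that hold small nucleolar RNAs had a median of -0.09 over 22 genes, with 11 lower and 3 higher at the adjusted p limit and 0 past the fold limit. The adjusted p limit took in 63.6% of them, beside 36.5% of all genes tested and 48.7% of those averaging at least 10 CPM. HSPA9, the mitochondrial chaperone, changed by -0.33 ± 0.03 and PRRC2A by -0.30 ± 0.03, with adjusted p of 9.7e-09 and 3.5e-08 by edgeR. RACK1 is in this list and the TOP list alike, as are EEF1B2, TPT1, EIF4A2 and EEF2, and DKC1, NOP56 and NOP58 are also in the list of particle proteins.

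Of the 8 core proteins of the particles that carry these RNAs, 4 were lower at the adjusted p limit and 1 was higher, with 0 past the fold limit and a median of -0.07. The share at the adjusted p limit was 62.5%, beside 36.5% of all genes and 48.7% of those averaging at least 10 CPM. FBL, the methyltransferase of box C/D particles, was 239 and 248 CPM in DMSO and 193 and 203 CPM in CBL0137 (-0.30 ± 0.04, adjusted p 1.5e-06 by edgeR). The small H/ACA proteins NHP2 (-0.43 ± 0.07) and NOP10 (-0.34 ± 0.06) were lower too, while DKC1, the pseudouridine synthase of the same particles, was slightly higher (0.11 ± 0.04, adjusted p 0.0417). Assembly factors were mixed, with 3 lower and 5 higher of 14 at the adjusted p limit and a median of 0.07. The 8 made up 57.1% of the list, beside 36.5% of all genes and 48.7% of those that averaged 10 CPM or more. COIL, the Cajal body scaffold, changed by -0.42 ± 0.08 (adjusted p 9.8e-05), NOLC1, the nucleolar chaperone of the particles, by 0.19 ± 0.04 (adjusted p 1.9e-04) and TGS1, the cap methylase, by 0.27 ± 0.05 (adjusted p 3.5e-04).

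Factors of nonsense-mediated decay, which removes many spliced host RNAs, had a median of -0.09, with 6 of 18 lower and 2 higher at the adjusted p limit and 0 past the fold limit. That is 44.4% of the list, beside 36.5% of all genes and 48.7% of those with a mean of at least 10 CPM. PNRC2, an adaptor to decapping, was lower by -0.53 ± 0.05 on the log2 scale (adjusted p 8.6e-09), RNPS1 by -0.32 ± 0.04 and EIF4A3 by -0.31 ± 0.05. In the 18 tested genes of a list of other long noncoding RNAs the median was -0.04, with 4 lower and 5 higher at the adjusted p limit. That share was 50%, beside 36.5% of all genes and 48.7% of those with a mean of at least 10 CPM. TUG1 changed by 0.33 ± 0.04, OIP5-AS1 by -0.29 ± 0.04 and NORAD by -0.21 ± 0.03, with adjusted p of 1.7e-06, 3.4e-06 and 3.1e-05. JPX, named after its values were seen, alone passed both limits (0.59 ± 0.21, adjusted p 0.0339), and that call was lost under DESeq2, limma-voom and the FPKM fit, when no counts were filtered, and when the first library of either condition was left out.

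**Figure D4:**
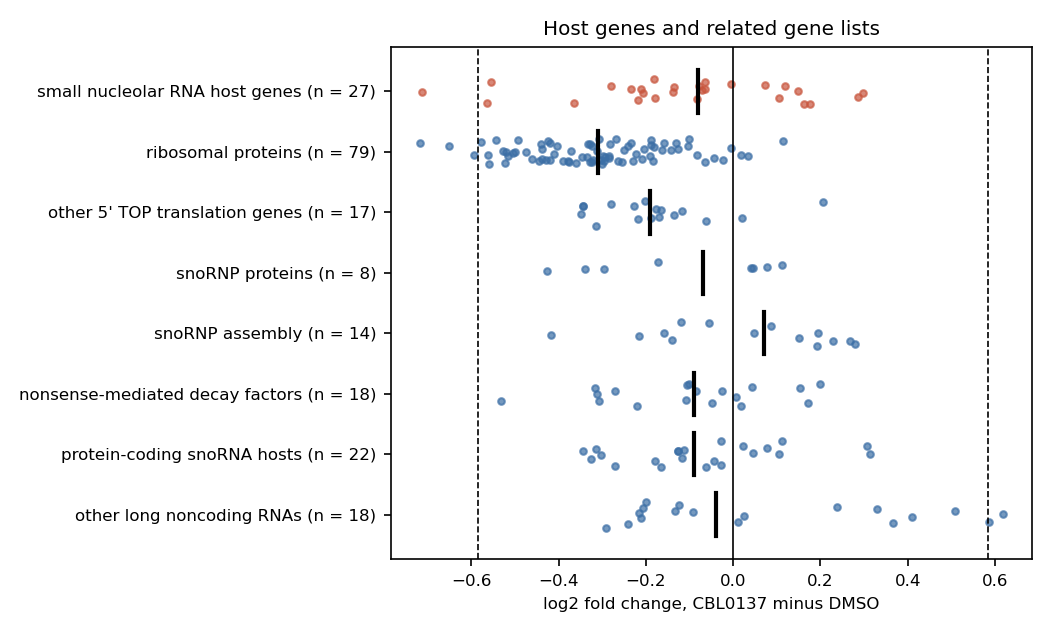
Log2 fold change of CBL0137 against DMSO for every tested gene of each list, 1 point a gene, with a black bar at the list's median, a solid line at zero and dashed lines at a fold of 1.5. The ribosomal protein genes sit mostly left of zero around -0.31, while the host genes and the other lists spread to both sides.

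Some hosts start within 1000 bases of the start of a protein-coding gene on the opposite strand, back to back unless an overlap is given. SLC3A2, the heavy chain of amino acid transporters, starts 51 bases from SNHG1 and was lower in CBL0137, at 361 and 360 CPM in DMSO and 269 and 276 CPM in CBL0137 (-0.40 ± 0.04, adjusted p 1.5e-09 by edgeR), while SNHG1 was at -0.08 ± 0.04. ZNFX1, an RNA helicase gene, starts 248 bases inside ZFAS1, so these genes overlap. It was higher (0.22 ± 0.06, adjusted p 0.00594 by edgeR), the sign opposite to ZFAS1. RPS2 starts 54 bases from the weakly counted SNHG9 and was lower (-0.32 ± 0.03, adjusted p 1.9e-09 by edgeR). ZBTB37 starts 800 bases inside GAS5, overlaps it and was lower as well (-0.18 ± 0.06, adjusted p 0.0225 by edgeR). TRAF7, 293 bases from SNHG19, was at -0.03 ± 0.05. BARD1, 498 bases from SNHG31, and ACAA2, 12 bases from SNHG22, were at -0.19 ± 0.08 and -0.15 ± 0.07 and did not pass the limit. SEMA5A, 95 bases from SNHG18, was not tested. Whether the change of a host differed from that of its neighbour was not tested.

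The small RNAs that the annotation places inside the hosts had few counts. It lists 102 of them within 22 of the hosts, 72 of these in SNHG14, 1 in GAS5 and none in SNHG1, SNHG5, SNHG6, SNHG7 or SNHG29, so the small RNAs of several abundant hosts are not covered. Of the 102, 101 are in the deposited table, of which 88 had 0 counts in all libraries and 7 had at least 10 counts in all. Every SNORD116 and SNORD115 copy in SNHG14 was at 0 counts. Some copies have the same sequence, such as SNORD116-17 and SNORD116-19, so their reads cannot be placed uniquely. Reads that did not align uniquely made up 6.43% to 7.78% of all reads and were given to no gene. The 0 counts therefore do not show that these RNAs were absent. The largest count was that of SNORA73B in SNHG3, with 46 and 48 counts in DMSO and 32 and 31 in CBL0137 (-0.54 ± 0.29), with an adjusted p of 0.154 by edgeR. SNORA71B in SNHG17 had 22, 12, 19 and 20 counts in the order of DMSO and CBL0137 replicates (0.24 ± 0.43, adjusted p 0.71), and SNORD104 in SNHG25 had 23, 11, 15 and 7 (-0.58 ± 0.52, adjusted p 0.42). The 4 others with at least 10 counts were SNORD99, SNORA13, SNORD93 and SNORD12C, each with 9 or fewer in every library. A count on such a short gene can be a read of unspliced host RNA or of the mature RNA, and these cannot be told apart in counts per gene. Summed over all of them, there were 118 and 101 counts in DMSO and 78 and 75 in CBL0137.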

How the data were processed

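RNA of A673 cells was measured in 4 libraries, grouped by sample title into DMSO and CBL0137. Per the submitters' processing notes, reads were trimmed with Trim Galore, mapped to hg19 with HISAT2 and counted with HTSeq 0.11.1; the notes also name DESeq2 1.26.0. The sources used here do not give strandedness, poly(A) selection, the counting mode or the annotation release, so overlapping and antisense genes may share reads. The authors deposited raw counts per gene and FPKM, obtained per the labels from reads mapped, gene length and depth. Of 60623 rows, 6 name no gene and stayed out, and the summary rows held 23.71% to 24.81% of reads. Symbols and GRCh37 positions came from GENCODE release 44 lifted to that build, which named 58524 of the IDs.

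Counts were tested with edgeR 4.0.16 (R 4.3.3; TMM, filterByExpr at a minimum count of 10, quasi-likelihood test, no further term), with Benjamini-Hochberg adjustment over all 17309 genes tested. CPM is after TMM scaling, and ± beside a log2 fold change gives the standard error. The common biological coefficient of variation was 3.18%. In simulated counts of this comparison (16914 genes), calls were made for 81 of the 100 genes set to a 2-fold change, 70 of the 96 set to 1.6-fold and 2 of the 16718 left unchanged. Alternatives were other scalings, filters, fold limits, DESeq2 1.42.0, limma 3.58.1 (voom, and trend on log2(FPKM + 1), where at least 2 libraries reached an FPKM of 1), a replicate block and each replicate left out, which lets the remaining library borrow the other condition's spread. That log2 scale understates the change of low genes.

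Host genes were taken by name, and members and lists were chosen with earlier results of these data known. Every tested host is named, with 3 genes of each list by smallest adjusted p. CCND1, CD99, NKX2-2 and JPX were added after their values were seen. Also named are all protein-coding neighbours that start within 1000 bases on the opposite strand, and small RNAs with at least 10 counts. The grouping by kind of small RNA is textbook knowledge and was made after the values were seen, as was the choice of overlapping genes. The promoter table spans 250 bases before to 50 after each start; it was joined by symbol. Tables and figures used Python 3.11.15, pandas 2.3.3 and matplotlib 3.10.9.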

Additional observations from a re-analysis of the deposited data

How the results depend on the processing

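Detection was not tested by count level, so it is unknown how large a change of the weakly counted hosts this depth could show. Over all genes, the count past both limits was 1663, 1066 with DESeq2, 577 with limma-trend on the FPKM, 736 at a fold limit of 2 and 6314 without one. Among hosts, 0 were higher at these limits and 2 without the fold limit. For lower hosts the count was 0, 0 to 1 when each replicate was left out, 1 with the FPKM (SNHG5) and 6 without the fold limit. Under the other scalings, filters and tests, and a fold limit of 2, both host counts were 0. At the adjusted p limit alone, DANCR, SNHG12, SNHG5, SNHG6 and SNHG14 passed under every alternative on counts. SNHG19 passed without DMSO replicate 1 or CBL0137 replicate 1, and SNHG29 without DMSO replicate 1.

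With the replicate number as a block, 1576 genes and 0 hosts were called. The numbers showed no sign of pairing: deviations of same-numbered libraries correlated at -0.0971 over 10366 genes. With 2 libraries in either condition, this correlation cannot settle whether the numbers pair the libraries.

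Directions turned for 9 hosts. SNHG8 was 0.04 by upper quartile, 0.06 by library size alone, 0.01 with a filter of 1 CPM and -0.08 to 0.06 with each replicate left out. The leave-one-out range was -0.32 to 0.06 for EPB41L4A-AS1, -0.51 to 0.06 for SNHG9, -0.16 to 0.01 for SNHG29, -0.30 to 0.42 for SNHG30 and -0.04 to 0.25 for SNHG17. On the FPKM scale the values were 0.00 for EPB41L4A-AS1, 0.11 for SNHG26, 0.03 for SNHG10, 0.18 for SNHG29 and -0.16 for SNHG14; the cause was not tested.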
